A study of Mus musculus with 12 samples.

Results

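Sfmbt2 is a mouse gene of chromosome 2 that carries one of the largest groups of microRNA hairpins of the mouse genome inside an intron. It was followed here in mouse embryonic stem (ES) cells that lack normal Drosha function and in wild-type ES cells; Drosha is the nuclear enzyme that frees microRNA hairpins from their long transcripts. The members were chosen by name and position, namely the row named Sfmbt2 and any row named for a microRNA in the region of that gene on chromosome 2 (mm10/GRCm38). The gene was selected on these same values, after its difference in these tables was known, so its levels and differences are a description and carry no test. Of 36883 rows in each table, 1 met the rule, the Sfmbt2 row at chr2:10339283-10595253, and 0 rows in that region were named for a microRNA. Rows of overlapping genes share 1 interval in these tables, and the interval given here is wider than the gene. The nearest microRNA row on chromosome 2 was Mir6419, 6.74 Mb beyond the region, at 0 in both short RNA libraries. The values below are therefore those of 1 row, which is the host gene together with whatever reads of its hairpins were assigned to it.

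The study compared Drosha-deficient with wild-type ES cells in 3 RNA fractions, with 1 library per genotype in each: mRNA isolated with an mRNA kit, and long and short RNA separated with a microRNA isolation kit. Libraries of all 3 fractions are labelled as made by a small RNA protocol. Per the labels' protocols, culture was in medium with serum and leukemia inhibitory factor (LIF). The labels of these 6 libraries give the genotype only; for the methylation samples of the same genotypes they name AB1 cells of 129Sv/Ev background, the Drosha-deficient cells being derived from AB1. They name no clone, and they do not say which part of the Drosha gene was disrupted. Drosha itself had 6.22 FPKM in the Drosha-deficient and 42.1 FPKM in the wild-type mRNA library, and 4.34 FPKM in Drosha-deficient and 21.2 FPKM in wild-type long RNA. FPKM is fragments scaled by transcript length and by the library's total. In each fraction 1 fragment was estimated to be worth slightly fewer FPKM in the Drosha-deficient library than in the wild-type one. The factor was 0.890 in mRNA, 0.844 in long RNA and 0.900 in short RNA. It is the most common Drosha-deficient to wild-type ratio among low rows of predicted genes. It rests on 53 of 768 such rows in mRNA, 65 of 781 in long RNA and 18 of 179 in short RNA. Differences below are log2((Drosha-deficient FPKM + 1)/(wild-type FPKM + 1)), and a row is called lower or higher at 2-fold or more on that scale, which shrinks the ratio of low values. Of the ES cell markers, 1 of 7 measured in short RNA was called, Dppa5a, higher at 32.7 FPKM in Drosha-deficient and 14.8 FPKM in wild-type cells. In mRNA 0 of 9 and in long RNA 0 of 8 were called. Of all measured rows 7.93% were lower and 8.64% higher in mRNA, and 6.89% lower and 6.26% higher in long RNA. A count of 0 among so few markers is near those shares. In these 2 fractions Tfcp2l1, a pluripotency factor, came nearest to a call, at 8.45 FPKM in Drosha-deficient and 17.1 FPKM in wild-type long RNA, a difference of -0.93. Pou5f1, the core pluripotency factor also called Oct4, had 700 FPKM in Drosha-deficient and 562 FPKM in wild-type mRNA.

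Sfmbt2 encodes a Polycomb-group protein with MBT repeats, modules that bind methylated histone tails, and its fly homologue works beside the DNA-binding protein Pho, the homologue of YY1. In mouse the gene is imprinted in extraembryonic tissue, where the paternal copy is expressed, and it is needed to maintain trophoblast cells of the placenta. Its intronic hairpins, of the miR-297, miR-466, miR-467 and miR-669 families, arose by repeated duplication in rodents and are transcribed with the host gene. In the canonical pathway Drosha with Dgcr8 releases such hairpins in the nucleus, and Dicer1 then cuts them to mature microRNAs.

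RefSeq (GRCm38.p6) places 72 microRNA genes inside Sfmbt2, more than in any other protein-coding gene of its table. Rtl1, the next, holds 15. The Sfmbt2 gene runs from 10370440 to 10595253 and is 225 kb long. The hairpins are spread over 51.6 kb of it, from 10466663 to 10518279, starting 96.2 kb after the gene start, and take up 6704 bases of that stretch. By name, 29 belong to miR-669, 24 to miR-466, 14 to miR-467 and 5 to miR-297. The hairpin genes are 73 to 127 bases long, and the median gap between neighbours is 209 bases. In the middle of the cluster a unit of 1 miR-467, 1 miR-466 and 1 miR-669 hairpin recurs. It occurs 12 times, of which 9 follow each other directly with starts 2413 to 2470 bases apart. Copies numbered within 1 name are common, with 10 named Mir467a, 12 named Mir669a and 8 named Mir466b. No sequence of these 72 was used, and such copies can share reads, so the short RNA value cannot be divided among them.

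**Figure D1:**
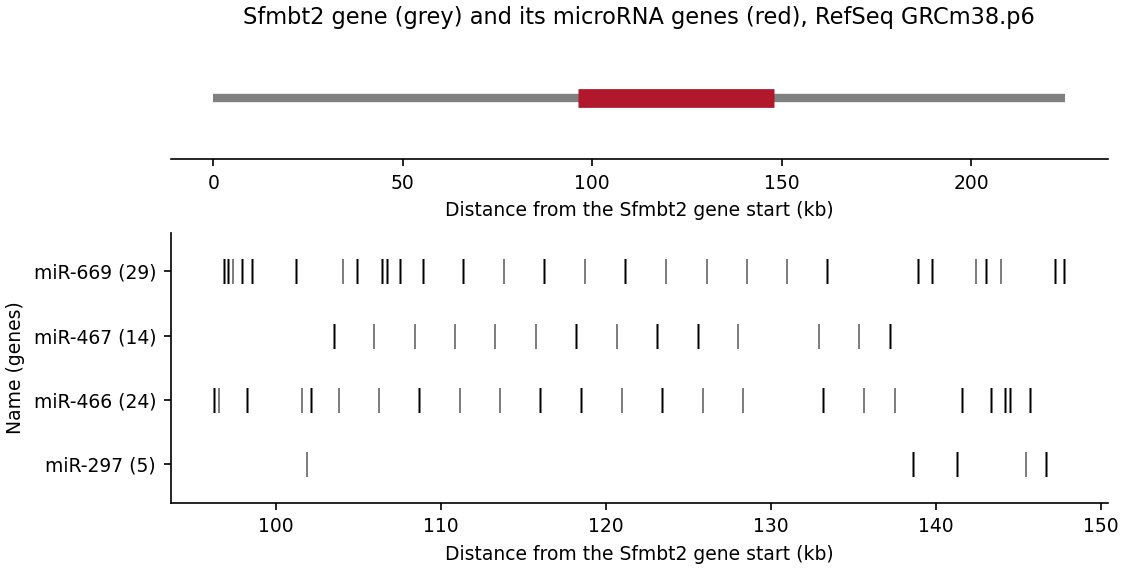
The upper line is the Sfmbt2 gene in kb from its start, with the microRNA cluster in red; each tick in the lower panel is 1 RefSeq microRNA gene at its distance in kb, in a row per family name. The 72 genes lie between 96.2 and 148 kb after the gene start, and the miR-467, miR-466 and miR-669 ticks recur together at even steps.

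Hairpins of the same family names lie elsewhere in the genome, and 9 of them have a row of their own: Mir297-1, Mir466f-4, Mir466i, Mir466j, Mir466k, Mir467f, Mir467g, Mir467h and Mir669n. All 9 were listed at 0 in all 6 libraries, whereas the Sfmbt2 row was among the highest of short RNA. Whether reads of these hairpins were assigned to other rows was not tested, so a 0 here does not show that a hairpin is absent. The mature sequences of the 7 with an entry in the sequence source used here are shown because they are relatives that the tables list apart from Sfmbt2. Their seeds, bases 2 to 8, are in capitals, and the 7 seeds all differ. Stretches of alternating U and G, or of A and C, of 7 to 12 bases run through them, the low-complexity makeup of this family.
mmu-miR-466k (chromosome 3): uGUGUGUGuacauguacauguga
mmu-miR-466j (chromosome 10): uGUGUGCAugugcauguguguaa
mmu-miR-466i-3p (chromosome 13): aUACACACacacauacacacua
mmu-miR-467f (chromosome 11): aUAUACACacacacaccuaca
mmu-miR-467g (chromosome 5): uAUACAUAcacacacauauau
mmu-miR-467h (chromosome 9): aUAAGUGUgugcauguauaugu
mmu-miR-669n (chromosome 3): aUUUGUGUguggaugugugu

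In short RNA the Sfmbt2 row had 198 FPKM in the Drosha-deficient library and 23522 FPKM in the wild-type library. The Drosha-deficient value was 119-fold lower, a log2 difference of -6.88 on the log2(FPKM + 1) scale. Among 2597 measured rows, those with status OK and at least 1 FPKM in 1 of both libraries, 18.4% were lower and 14.8% higher, and the difference of Sfmbt2 was the 85th lowest. Its level ranked 91st in Drosha-deficient and 20th in wild-type short RNA. Among 1796 protein-coding rows it ranked 27th in Drosha-deficient and 2nd in wild-type cells. Of 158 measured microRNA rows 147 were lower, with a median difference of -5.62, and 62 had a lower difference than the Sfmbt2 row. The authors' deposited table also marked this row as significant in short RNA, with a q-value of 0.00245 that compares 1 library with 1 library.

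In mRNA the row had 10.7 FPKM in the Drosha-deficient library and 80.4 FPKM in the wild-type library. It was 7.51-fold lower, a log2 difference of -2.80, in a table in which 7.93% of 14752 measured rows were lower and 8.64% higher. This was the 25th lowest difference of all measured rows and the 12th lowest of 11036 protein-coding rows. By level the row stood 7190th among all measured rows in Drosha-deficient cells and 1161st in wild-type cells. The authors' deposited table gave it a p-value of 0.0503 and a q-value of 0.999 in mRNA and did not mark it as significant.

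In long RNA the row had 6.01 FPKM in the Drosha-deficient library and 6.25 FPKM in the wild-type library. The log2 difference was -0.05, so it was neither lower nor higher, where 6.89% of 13933 measured rows were lower and 6.26% higher. Its rank by level was 7559th in Drosha-deficient and 7494th in wild-type cells. The host row was thus lower without Drosha in mRNA and in short RNA, and the libraries of long RNA were within 1.04-fold of each other. The 3 tables were normalized separately, so levels are compared within a fraction only.

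**Figure D2:**
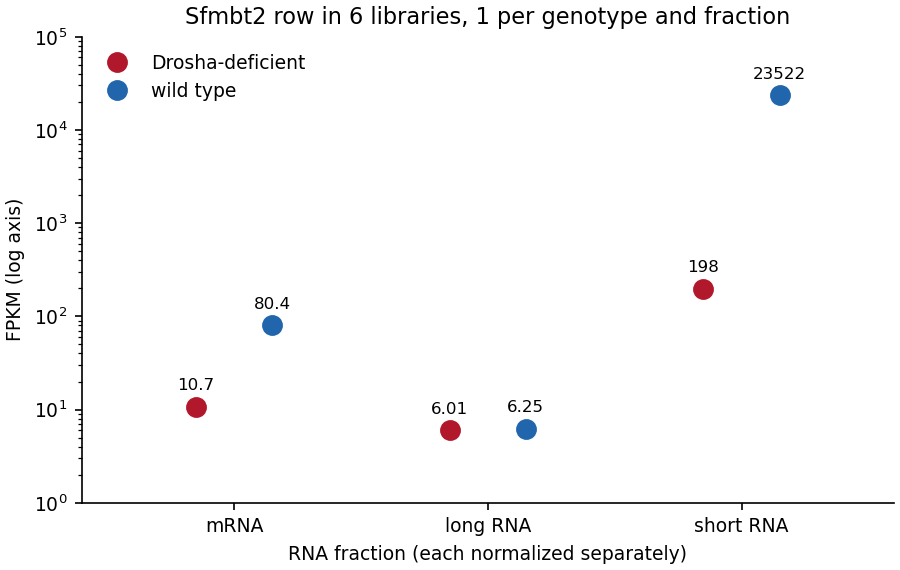
FPKM of the Sfmbt2 row on a log axis in the 6 libraries, by RNA fraction; each point is 1 library, so there are no error bars. The Drosha-deficient points are 10.7, 6.01 and 198 and the wild-type points 80.4, 6.25 and 23522 in mRNA, long RNA and short RNA.

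The mRNA difference of Sfmbt2 lay far below its long RNA difference. For Sfmbt2 the mRNA difference minus the long RNA difference was -2.75, against a median of 0.07 over 13322 rows measured in both fractions. Of those rows 136, or 1.02%, were at -1 or below, and 300 were at 1 or above. Ranks here count from the negative end and are no rank by size. Tmem38b, for one, had a wider gap in the other direction, with differences of 2.89 in mRNA and -0.55 in long RNA. Sfmbt2 was the 4th lowest of all and the lowest of 10103 protein-coding rows. The protein-coding row after it, Dynlt1f, a dynein light chain gene, stood at -1.65, with 9.64 FPKM in Drosha-deficient and 11.3 FPKM in wild-type mRNA, and 5.58 FPKM in Drosha-deficient and 1.43 FPKM in wild-type long RNA. The 3 rows below Sfmbt2 include Gm14039, a predicted gene, and Mir5136. The row named Mir5136 had 2.34 FPKM in Drosha-deficient and 62.8 FPKM in wild-type mRNA, and 102 FPKM in Drosha-deficient and 84.5 FPKM in wild-type long RNA.

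**Figure D3:**
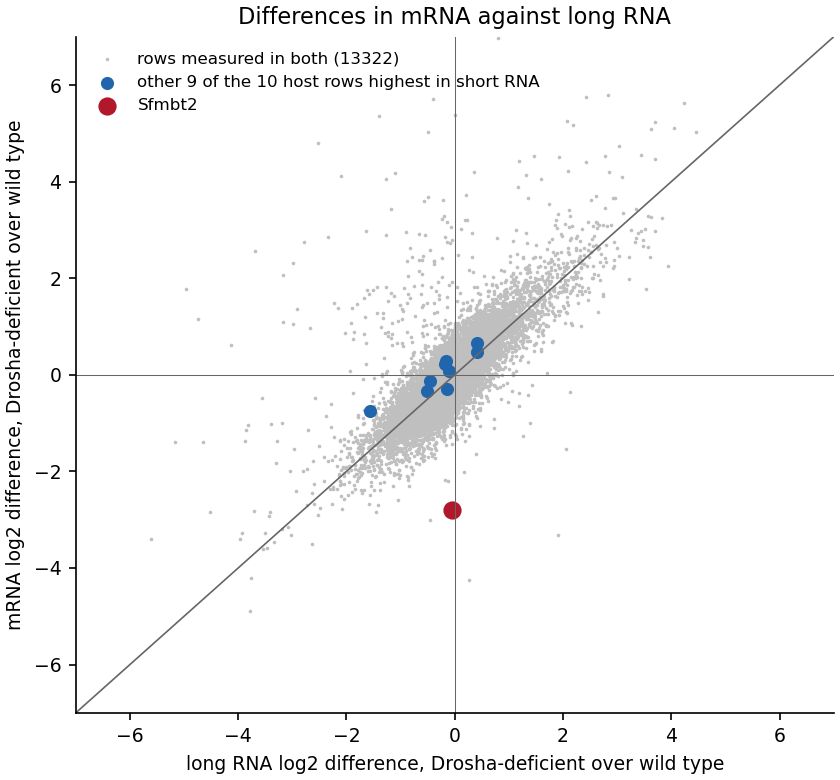
Each grey point is 1 of 13322 rows, with its long RNA log2 difference across and its mRNA log2 difference up (Drosha-deficient over wild type); the diagonal marks equal differences, and 2 rows lie outside the axes. Sfmbt2, in red, sits at -0.05 across and -2.80 up, below the cloud, and the 9 blue host rows lie within it.

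Other protein-coding genes carry hairpins that have no row of their own, and they give the nearest comparison for a row of this kind. By the RefSeq intervals, with strand not used, 104 such rows were measured in short RNA, Sfmbt2 included, and Sfmbt2 had the highest wild-type level of them. In short RNA 46 of the 104 were lower and 8 higher, with a median difference of -0.68. Of all rows measured there, 18.4% were lower and 14.8% higher. In mRNA 101 were measured, of which 9 were lower and 13 higher, with a median of 0.22 beside 0.01 over all measured rows. In long RNA 7 of 101 were lower and 7 higher. The shares of all measured rows were 7.93% lower and 8.64% higher in mRNA, and 6.89% lower and 6.26% higher in long RNA. The lower count of the hosts in mRNA and both counts in long RNA are near those shares.

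The 10 host rows with the highest wild-type short RNA level were taken after their values had been seen, and all 10 were lower in short RNA. Ranking by the wild-type level favours rows that are lower in Drosha-deficient cells, so this count is a description of the rows chosen and is no support. The other 9 had differences of -9.61 to -5.60 there, beside the -6.88 of Sfmbt2. Vmp1, an autophagy gene whose interval holds Mir21a, had 30.1 FPKM in Drosha-deficient and 12979 FPKM in wild-type short RNA. Clcn5, a chloride transporter gene with 5 hairpins, had 12.2 FPKM in Drosha-deficient and 10334 FPKM in wild-type cells. Mcm7, a subunit of the replicative helicase that holds Mir25, Mir93 and Mir106b, had 24.2 FPKM in Drosha-deficient and 6455 FPKM in wild-type cells. In Drosha-deficient short RNA the level of the Sfmbt2 row, 198 FPKM, was above that of Chm, the highest of the other 9, at 54.8 FPKM. Relative to wild type the order was the reverse, with a Drosha-deficient to wild-type ratio of 0.00842 for Sfmbt2 and 0.0203 for Chm.

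These other 9 hosts, chosen by their short RNA level, were not called in mRNA. They had mRNA differences of -0.75 to 0.65. With 7.93% of all measured rows lower and 8.64% higher in mRNA, a count of 0 among 9 is near those shares. Vmp1 had 505 FPKM in Drosha-deficient and 415 FPKM in wild-type mRNA, and Mcm7 had 90.6 FPKM in Drosha-deficient and 65.1 FPKM in wild-type mRNA. In long RNA the differences of the 9 were -1.56 to 0.41, and 1 of them was lower. It was Spaca6, a sperm membrane gene with Mirlet7e and Mir125a, at 1.31 FPKM in Drosha-deficient and 5.80 FPKM in wild-type cells. With 6.89% of all measured rows lower and 6.26% higher in long RNA, this count too is near the share of all rows. Among all the measured hosts, 8 besides Sfmbt2 were lower in mRNA. Igf2, a growth factor gene that holds Mir483, had a larger difference than Sfmbt2, at 1.08 FPKM in Drosha-deficient and 60.9 FPKM in wild-type mRNA, or -4.90, and it was also lower in long RNA at -3.78 and in short RNA at -2.54. Oaz1, Copz2, Gabre and Scd2 were likewise lower in all 3 fractions. AA467197, which holds Mir147, was lower in mRNA at -1.13 and in short RNA at -2.42 and was not called in long RNA, the same calls as Sfmbt2. In long RNA, though, AA467197 had 0.499 FPKM in Drosha-deficient and 1.25 FPKM in wild-type cells. That is 2.50-fold lower in plain FPKM, and it misses the call through the added 1 FPKM, whereas Sfmbt2 was 1.04-fold lower there. Rps21 and Cars were lower in mRNA and not called in short RNA. Whether the difference between Sfmbt2 and the other hosts in mRNA exceeds the spread between replicates cannot be judged with 1 library per genotype.

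**Figure D4:**
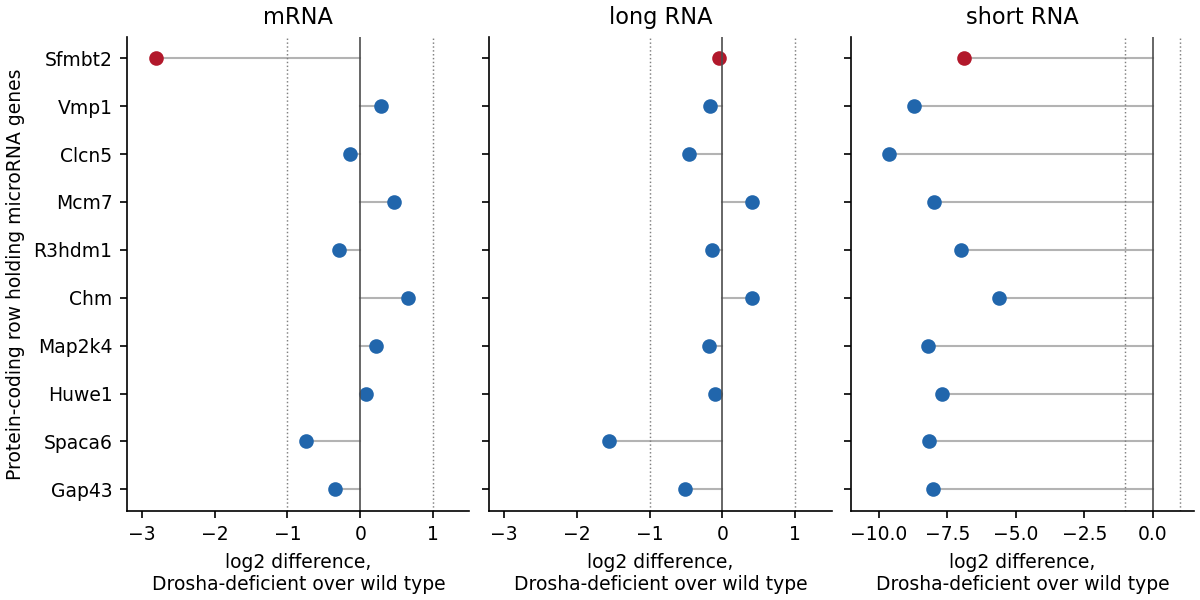
Log2 differences (Drosha-deficient over wild type) of the 10 protein-coding host rows with the highest wild-type short RNA level, ordered by that level from the top, in mRNA, long RNA and short RNA; dotted lines mark 2-fold, and the short RNA axis has its own scale. All 10 lie below -5 in short RNA, and Sfmbt2, in red, alone lies below -1 in mRNA.

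MicroRNA rows also carried signal in the fractions of longer RNA. In mRNA 71 microRNA rows were measured, with 37 higher, 24 lower and a median difference of 1.09. Of all measured rows there 7.93% were lower and 8.64% higher, with a median of 0.01. In long RNA 114 microRNA rows were measured, with 23 higher, 62 lower and a median of -1.31. Of all measured rows there 6.89% were lower and 6.26% higher, with a median of -0.04. In mRNA 9 of the 71 had a lower difference than Sfmbt2. Mir293, the microRNA row with the highest wild-type short RNA level, had 290 FPKM in Drosha-deficient and 76.2 FPKM in wild-type mRNA. In long RNA Mir293 was not called, at 471 FPKM in Drosha-deficient and 582 FPKM in wild-type cells. How much of the Sfmbt2 value in mRNA came from its hairpins was not tested, since the table gives 1 value for the row.

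Around Sfmbt2, 28 other rows lie within 1 Mb of the region, and 7 of them were measured in mRNA and 7 in long RNA. Gm13261, a predicted gene, is listed with the same interval as Sfmbt2. It had 3.05 FPKM in the Drosha-deficient and 10.2 FPKM in the wild-type mRNA library, a difference of -1.47, and was the 1 neighbour lower in mRNA. In long RNA it had 1.94 FPKM in Drosha-deficient and 3.21 FPKM in wild-type cells, a difference of -0.52. In short RNA it did not pass the filter, at 0.331 FPKM in Drosha-deficient and 0.0211 FPKM in wild-type cells. The sources used here do not say whether counting was by strand. Without it, reads from any stretch that the transcripts of both genes cover cannot be told apart.

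Beyond that shared interval, 0 of the measured rows were called lower in mRNA, and Pfkfb3 came nearest. With 7.93% of all measured rows lower in mRNA, a count of 0 among so few rows is near that share. Upstream, Kin, a DNA-binding protein gene 246 kb away, had 15.9 FPKM in Drosha-deficient and 13.6 FPKM in wild-type mRNA. Atp5c1, a subunit of the mitochondrial ATP synthase, had 199.5 FPKM in Drosha-deficient and 237 FPKM in wild-type mRNA. Taf3, a subunit of the basal transcription factor TFIID, had 18.5 FPKM in Drosha-deficient and 9.85 FPKM in wild-type mRNA, a difference of 0.85. Downstream, Gm13292 was higher in both fractions, at 1.51 in mRNA and 1.13 in long RNA. Pfkfb3, which makes an activator of glycolysis, had 4.42 FPKM in Drosha-deficient and 9.44 FPKM in wild-type mRNA, 2.14-fold lower in plain FPKM and a difference of -0.95. It was called lower in long RNA, at 1.63 FPKM in Drosha-deficient and 5.22 FPKM in wild-type cells. Rbm17, a splicing factor gene, had 109 FPKM in Drosha-deficient and 150.3 FPKM in wild-type mRNA, and 48.9 FPKM in Drosha-deficient and 49.7 FPKM in wild-type long RNA. In short RNA 2 of the 28 rows were measured, Atp5c1 and Rbm17, and neither was called.

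**Figure D5:**
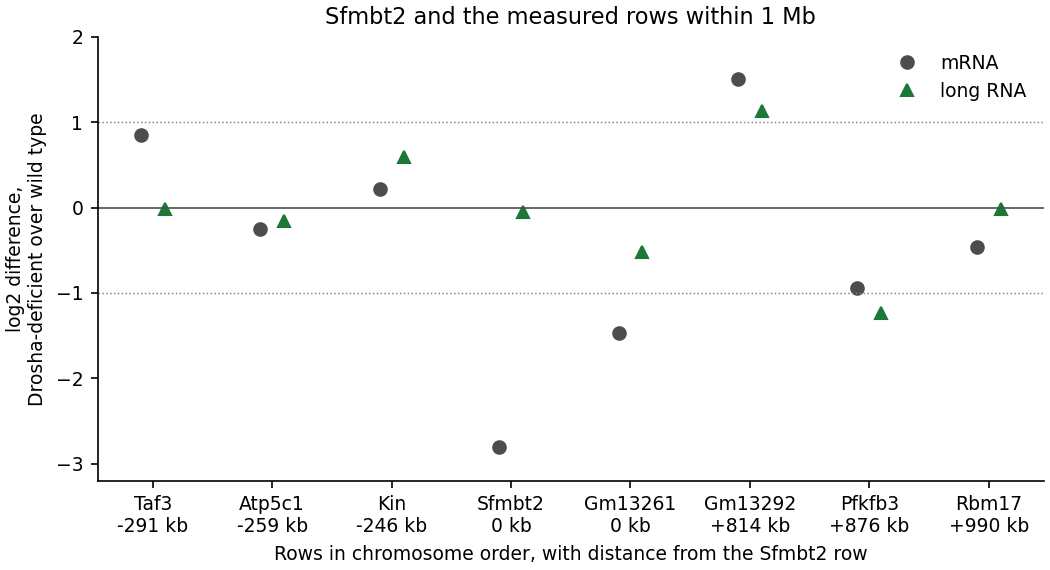
Log2 differences (Drosha-deficient over wild type) in mRNA (circles) and long RNA (triangles) of Sfmbt2 and the 7 measured rows within 1 Mb, in chromosome order with the distance in kb; dotted lines mark 2-fold. Sfmbt2 at -2.80 and Gm13261 at -1.47 are below the lower line in mRNA, and Pfkfb3 at -1.24 is below it in long RNA.

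Few rows shared the calls of Sfmbt2. Of 2298 single-gene rows measured in all 3 fractions, 8 were lower in mRNA and in short RNA but not called in long RNA, and 57 were lower in all 3. Besides Sfmbt2, the 8 were Gm15796, 1810032O08Rik, Gm4540, Naca, Unc45b, Tmem234 and the host row AA467197, whose mRNA differences were -1.58 to -1.13. Their long RNA differences were -0.97 to -0.58, beside the -0.05 of Sfmbt2. They thus share its calls but not its nearly equal long RNA levels. By the distance between the 3 log2 differences, R3hdm1, which holds Mir128-1, was closest at 2.51, with -0.29 in mRNA, -0.14 in long RNA and -7.01 in short RNA. Rpl5, a ribosomal protein gene, followed at 2.61. Copz2, Gap43 and the microRNA row Mir300 came next, at 2.73, 2.74 and 2.76. By the distance between the log2(FPKM + 1) levels of all 6 libraries the closest were Ralgapb, R3hdm1, Tmem38b, Chm and Mir182, at 3.82 to 4.94. These distances describe 6 libraries and set no gene beside Sfmbt2 in function.

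Genes related to Sfmbt2 by domain or partner were not called, though a pair of MBT genes came close to the limit. Of 12 listed MBT-domain and YY1-family genes 11 had a row, and 8 were measured in mRNA and 8 in long RNA, 0 of them lower or higher, with median differences of 0.24 and 0.20 beside 0.01 and -0.04 over all measured rows. With 7.93% of all rows lower and 8.64% higher in mRNA, and 6.89% lower and 6.26% higher in long RNA, a count of 0 among 8 is near the share of all rows and says nothing particular of the family. Sfmbt1, the closest relative, had 9.32 FPKM in Drosha-deficient and 6.18 FPKM in wild-type mRNA. L3mbtl2, an MBT protein of a Polycomb complex, had 74.0 FPKM in Drosha-deficient and 36.8 FPKM in wild-type mRNA, a difference of 0.99. L3mbtl3, at 5.05 FPKM in Drosha-deficient and 2.07 FPKM in wild-type mRNA, had a difference of 0.98. The plain FPKM ratios of both are above 2, and they miss the call through the added 1 FPKM. Yy1 had 44.9 FPKM in Drosha-deficient and 40.2 FPKM in wild-type mRNA.

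Genes imprinted in placenta without maternal DNA methylation, the class that includes Sfmbt2, were not called either. All 5 with a row were measured in mRNA and long RNA and 0 were lower or higher, with median differences of 0.42 and 0.05. Among 5 genes this too is near the share of all rows. Gab1, a signalling adaptor, had 117 FPKM in Drosha-deficient and 83.1 FPKM in wild-type mRNA. Slc38a4, an amino acid transporter, had 53.5 FPKM in Drosha-deficient and 60.7 FPKM in wild-type mRNA. Jade1, a subunit of a histone acetyltransferase complex, had 57.3 FPKM in Drosha-deficient and 33.6 FPKM in wild-type mRNA. Smoc1, a secreted calcium-binding protein, had 12.1 FPKM in Drosha-deficient and 8.79 FPKM in wild-type mRNA.

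Of the markers of trophoblast, a lineage in which Sfmbt2 is active, part were lower in Drosha-deficient cells, and the part of this in the Sfmbt2 difference was not tested. In mRNA 9 of 14 were measured, 6 of them lower and 0 higher, with a median of -1.25, where 7.93% of all measured rows were lower. In long RNA 4 of 5 measured were lower, with a median of -1.69, where 6.89% of all measured rows were lower. The summed level of the listed markers was 50.8 FPKM in Drosha-deficient and 192 FPKM in wild-type mRNA, and 27.8 FPKM in Drosha-deficient and 145 FPKM in wild-type long RNA. The keratin genes Krt18 and Krt8 held most of that sum, with 23.6 and 7.92 FPKM in Drosha-deficient and 118 and 27.9 FPKM in wild-type mRNA. The defining factor Cdx2 had 0.122 FPKM in Drosha-deficient and 1.54 FPKM in wild-type mRNA, and Elf5 had 0.259 FPKM in Drosha-deficient and 0.0725 FPKM in wild-type mRNA. Eomes, another defining factor, had 1.37 FPKM in Drosha-deficient and 1.11 FPKM in wild-type mRNA, and Ascl2 and Esx1 were measured and not called. The placental genes Prl3d1 and Tpbpa were listed at 0 in both mRNA libraries.

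Fibroblast and extraembryonic endoderm markers were partly lower too, in tables where 7.93% of all measured rows were lower in mRNA and 6.89% in long RNA. Of 11 measured fibroblast markers 6 were lower in mRNA and 7 in long RNA, 0 were higher, and their sum was 282 FPKM in Drosha-deficient and 489 FPKM in wild-type mRNA. Of 7 measured endoderm markers 2 were lower in mRNA, Col4a2 and Dab2, and 0 were higher. In long RNA 1 of 6 measured was lower, Col4a2. Gata4 had 2.45 FPKM in Drosha-deficient and 0.855 FPKM in wild-type mRNA, a difference of 0.90. It misses the call as higher through the added 1 FPKM, and its long RNA difference was -0.13. The endoderm sums were 272 FPKM in Drosha-deficient and 279 FPKM in wild-type mRNA. Sparc held most of them, at 219 FPKM in Drosha-deficient and 222 FPKM in wild-type mRNA. Fewer cells of a type and less RNA per cell cannot be told apart in such bulk libraries.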

How the data were processed

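The authors deposited 3 gene-level tables in FPKM, with wild type first and Drosha-deficient second per the file headers. The submitters' processing notes name bcl2fastq 1.8.4, TopHat2 2.0.10, Cufflinks 2.1.1, Cuffdiff and mm10/GRCm38; the sources used here give no annotation, scaling or strand setting. The authors' log2 fold changes, p-values and q-values in the deposited tables rest on 1 library per genotype. By elimination, the long RNA table was taken as that of the total RNA samples. Differences were log2((Drosha-deficient FPKM + 1)/(wild-type FPKM + 1)), which understates differences of low values. With no replicate, no test was made. Fragment counts are not in the tables, so no counting interval is given; relative depth came from the modal ratio of low values. Members, lists and comparisons were chosen with earlier results of these data known. Named genes were the member, measured neighbours, related hairpin rows, the 5 closest rows by each distance and examples of each list; host rows and rows sharing its calls were added after seeing values. Python 3.11.15, numpy 2.4.6, pandas 2.3.3 and RefSeq GRCm38.p6 were used. The code for the calls was checked on simulated tables without noise, which says nothing of how reliable a call from 1 library per genotype is. The Dnmt1-deficient and methylation samples were not analysed here.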

Additional observations from a re-analysis of the deposited data

How the results depend on the processing

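With 1 library per genotype, no result has a replicate check. Of 18 other settings for the Sfmbt2 row (pseudocount, filters and centring), 18 left its calls as they were and 9, the filters, left its values as they were. With pseudocounts of 0.1 and 5 the log2 differences were -2.90 and -2.44 in mRNA, -0.056 and -0.032 in long RNA, and -6.89 and -6.86 in short RNA. Centring on the median of all measured rows gave -2.81, -0.0070 and -6.86 in mRNA, long RNA and short RNA. The mRNA minus long RNA difference, with alternatives chosen after seeing the data, was -2.84 and -2.41 with those pseudocounts and -2.80 after centring, and was the lowest of protein-coding rows under all 6 of its alternatives. Its place among all rows, 4th lowest as reported, was 13th with a pseudocount of 0.1, 2nd with 5, 3rd with a minimum of 5 FPKM and 5th with all rows except failed ones. Results intended over microRNA rows of the cluster gave no value, since no row met the rule. No paired analysis was possible because each group has 1 library.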
